A study of Mus musculus with 11 samples.

Results

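Bone morphogenetic protein 4 (Bmp4) and the inhibitor of DNA binding genes (Id1, Id2, Id3 and Id4), with the inhibitory SMAD genes Smad6 and Smad7, were followed in mouse epiblast stem cells (EpiSCs). EpiSCs are pluripotent cells of the postimplantation epiblast. The members were all array probes that the platform annotation lists under these 7 symbols, which gave 6 of the 15718 probes in the table and 5 of its 9201 gene symbols. Id2 had 2 probes, Bmp4, Id1, Id3 and Smad6 had 1 each, and the remaining members Id4 and Smad7 were not analysed here. All cells were of the strain 129xMF1 and grew in N2B27 medium with Activin and Fgf. Stimulated cultures received G-CSF for 3 hours. The 4 groups were stimulated GY118F EpiSCs (2 arrays), unstimulated GY118F EpiSCs (3 arrays), stimulated control EpiSCs (3 arrays) and unstimulated control EpiSCs (3 arrays). GY118F is a transgene for a chimeric receptor that lets G-CSF activate the transcription factor STAT3 through the signalling part of gp130, and the control cells carry no transgene in the labels. The promoter of the transgene, the number of clones and the dose of G-CSF are not given in the sources used here, and no culture handled alongside without G-CSF is described.

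BMP4 is a secreted ligand that binds paired type I and type II receptor kinases. These phosphorylate SMAD1, SMAD5 and SMAD9, which join SMAD4 and switch on target genes, among them the Id genes and the feedback inhibitors Smad6 and Smad7. ID proteins have a helix-loop-helix domain but no DNA-binding part, so they tie up E proteins and other bHLH factors. In the mouse embryo BMP4 comes from the extraembryonic ectoderm and acts on the epiblast in mesoderm and germ cell formation, whereas in naive embryonic stem cells ID proteins act beside LIF and STAT3 in self-renewal.

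The promoters of Bmp4 and Id2, the members with a called change in both lines and a listed promoter, are shown from RefSeq (GRCm38.p6), 250 bases before to 50 after the start of the gene, 5′ to 3′ on the gene's strand. Both genes lie on the minus strand, Bmp4 at chr14:46390620-46390919 and Id2 at chr12:25096043-25096342. Capitals mark every match to 4 motifs searched on both strands.
Bmp4: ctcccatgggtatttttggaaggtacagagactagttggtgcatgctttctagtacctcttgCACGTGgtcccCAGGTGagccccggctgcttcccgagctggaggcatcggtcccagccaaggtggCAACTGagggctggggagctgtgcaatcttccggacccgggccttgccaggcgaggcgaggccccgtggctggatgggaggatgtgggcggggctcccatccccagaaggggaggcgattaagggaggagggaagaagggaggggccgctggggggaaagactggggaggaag
Id2: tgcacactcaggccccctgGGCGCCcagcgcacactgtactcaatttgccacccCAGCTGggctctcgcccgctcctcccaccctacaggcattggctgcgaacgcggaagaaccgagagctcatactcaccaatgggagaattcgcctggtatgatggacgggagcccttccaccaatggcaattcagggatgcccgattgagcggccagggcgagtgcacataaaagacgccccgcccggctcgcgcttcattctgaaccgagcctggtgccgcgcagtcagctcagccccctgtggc
The motifs were TTCNNNGAA (STAT), GGCGCC (a GC-rich element that SMADs bind), CAGAC with its complement GTCTG (SMAD box) and CANNTG (the E-box that bHLH factors bind). In Bmp4 all 3 matches were E-boxes, with their first base at positions -188, -177 and -123 from the start. In Id2 a GGCGCC began at -231 and an E-box at -196. E-boxes were in 72.3% of the 32851 listed mouse promoters, GGCGCC in 11.9%, the SMAD box in 49.6% and TTCNNNGAA in 8.3%. The promoter of Id3 held 2 SMAD boxes and that of Smad6 held 1 E-box. The promoter of Id1 is not shown here.

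Probe values, on a log2-like scale, had a median of 8.16 and spanned 7.11 to 15.22, and each log2 change below is a difference of group means. Across probes, r was 0.994 to 0.998 between arrays of the same group and 0.960 to 0.982 between groups. Socs3, the feedback inhibitor that STAT3 induces, had a log2 change of 3.00 after G-CSF in GY118F EpiSCs and of -0.17 in control EpiSCs, both called. Already without G-CSF, Socs3 was higher in GY118F than in control EpiSCs by 0.73 (limma adjusted p = 7.25e-08). The EpiSC markers were all measured (10 of 10). Their mean level was 9.88 to 9.99 in stimulated and 9.71 to 9.81 in unstimulated GY118F EpiSCs. In control EpiSCs it was 10.36 to 10.48 with and 10.18 to 10.26 without G-CSF. Not all 10 shared this direction. Without G-CSF, 5 were called lower and 1 higher in GY118F than in control EpiSCs, where 15.2% of all probes were lower and 15.2% higher. With G-CSF, 5 were lower and 0 higher, where 13.4% of all probes were lower and 13.9% higher. Of 4 endoderm, 2 fibroblast, 3 mesoderm and 1 haematopoietic markers measured, 0 lay above the table's median in their mean over all arrays. Of the neural progenitor markers 1 of 3 did, and of the trophoblast markers 3 of 7. In unstimulated control EpiSCs alone, the fibroblast marker Thy1 (8.61) and the endoderm marker Dab2 (8.24) lay above that median. The other measured fibroblast marker, Dcn, went the other way. Its mean was lowest in unstimulated control EpiSCs (7.36) and highest in stimulated GY118F EpiSCs (8.15). The labels do not tell whether replicate arrays came from separate cultures, so the p-values measure only the spread between these samples, and that spread may be technical. Titles number the 2 stimulated GY118F arrays 1 and 2, while their source names give 2 and 3. The source-name numbers are used here for these arrays and the title numbers for all others.

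The ligand Bmp4 was lowest in unstimulated GY118F EpiSCs and highest in unstimulated control EpiSCs. Its values were higher with G-CSF in GY118F EpiSCs and lower with G-CSF in control EpiSCs. The probe read 8.02 and 7.97 in stimulated GY118F EpiSCs, against 7.83, 7.84 and 7.85 in unstimulated GY118F EpiSCs. In control EpiSCs it read 8.20, 8.11 and 8.06 with G-CSF, against 8.66, 8.51 and 8.60 without. The groups did not overlap in either line, and all 8 arrays of the other 3 groups lay above the 3 unstimulated GY118F arrays. Bmp4 rose by 0.15 ± 0.06 (SE; 1.11-fold; limma adjusted p = 0.0486) in GY118F EpiSCs. It fell by 0.47 ± 0.05 (SE; limma adjusted p = 1.30e-05) in control EpiSCs. The rise in GY118F EpiSCs was no longer called without 1 of 7 arrays, namely either stimulated GY118F array, any of the 3 unstimulated GY118F arrays, stimulated control replicate 2 or unstimulated control replicate 3 (log2 change 0.13 to 0.18, limma adjusted p up to 0.209). In bulk samples, fewer expressing cells and less RNA per cell cannot be told apart.

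Id1, an ID protein that BMP signals induce in embryonic stem cells, was highest in stimulated GY118F EpiSCs. It read 8.52 and 8.51 there, against 8.18, 8.03 and 8.05 in unstimulated GY118F EpiSCs. In control EpiSCs it read 7.97 on each of the 3 stimulated arrays, against 8.14, 8.14 and 8.09 on the unstimulated ones. Both stimulated GY118F arrays lay above all the other arrays, and the unstimulated groups of the 2 lines overlapped. Id1 rose by 0.43 ± 0.05 (SE; 1.35-fold; limma adjusted p = 4.45e-05) in GY118F EpiSCs and fell by 0.15 ± 0.05 (SE; limma adjusted p = 0.0208) in control EpiSCs. The fall in control EpiSCs lost its call without stimulated control replicate 2 or 3 or unstimulated control replicate 1 or 2 (log2 change -0.15 to -0.14, limma adjusted p 0.0516 to 0.0674).

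Id2, the ID protein known in mouse for its part in lymphoid development, rose after G-CSF in both lines on its brighter probe. This probe read 8.59 and 8.96 in stimulated GY118F EpiSCs, against 8.15, 8.09 and 8.19 in unstimulated GY118F EpiSCs. It read 8.05, 8.08 and 8.16 in stimulated control EpiSCs, against 7.32, 7.52 and 7.48 in unstimulated control EpiSCs. The stimulated arrays lay above the unstimulated ones in each line, and stimulated control EpiSCs overlapped with unstimulated GY118F EpiSCs. The rise was 0.63 ± 0.09 (SE; 1.55-fold; limma adjusted p = 0.000166) in GY118F EpiSCs and 0.66 ± 0.08 (SE; 1.58-fold; limma adjusted p = 4.14e-05) in control EpiSCs. The 2 stimulated GY118F arrays differed from each other. The rise was 0.45 without replicate 3 and 0.81 without replicate 2, each time with a single array left in that group.

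The second Id2 probe, which the annotation ties to a cDNA record in place of the RefSeq transcript, gave another picture in GY118F EpiSCs. It read 7.87 and 7.85 with G-CSF, against 7.93, 7.75 and 7.81 without, so the groups overlapped. Its log2 change there was 0.03 (95% interval -0.09 to 0.15; limma adjusted p = 0.693). In control EpiSCs it read 7.56, 7.60 and 7.64 with G-CSF, against 7.41, 7.39 and 7.37 without, a rise of 0.22 ± 0.05 (SE; limma adjusted p = 0.00410). The probes of Id2 thus disagreed on G-CSF in GY118F EpiSCs and shared a direction in control EpiSCs.

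Id3 and the inhibitory SMAD gene Smad6, which blocks receptor-activated SMADs, stayed near the low end of the table. Id3 read 7.68 and 7.42 in stimulated GY118F EpiSCs, against 7.44, 7.51 and 7.61 in unstimulated GY118F EpiSCs. It read 7.68, 7.65 and 7.61 in stimulated control EpiSCs, against 7.44, 7.39 and 7.47 in unstimulated control EpiSCs. The Id3 groups overlapped in GY118F EpiSCs (log2 change 0.03, 95% interval -0.13 to 0.19; limma adjusted p = 0.784), and Id3 rose by 0.21 ± 0.06 (SE; limma adjusted p = 0.0192) in control EpiSCs. Smad6 spanned 7.48 to 7.50 in stimulated and 7.54 to 7.60 in unstimulated GY118F EpiSCs, and 7.57 to 7.60 in stimulated against 7.56 to 7.60 in unstimulated control EpiSCs. Its log2 change was -0.07 (95% interval -0.17 to 0.03) in GY118F and -0.01 (95% interval -0.09 to 0.08) in control EpiSCs, neither called (limma adjusted p = 0.239 and 0.933). The 25th percentile of the table was 7.62, and the table gives no detection p-values. With values below it set to it, the log2 change in control EpiSCs was 0.03 for Id3 and 0.01 for the second Id2 probe, neither called. The Id3 rise also lost its call without stimulated control replicate 1 (limma adjusted p = 0.0553) or unstimulated control replicate 2 (limma adjusted p = 0.0653).

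**Figure D1:**
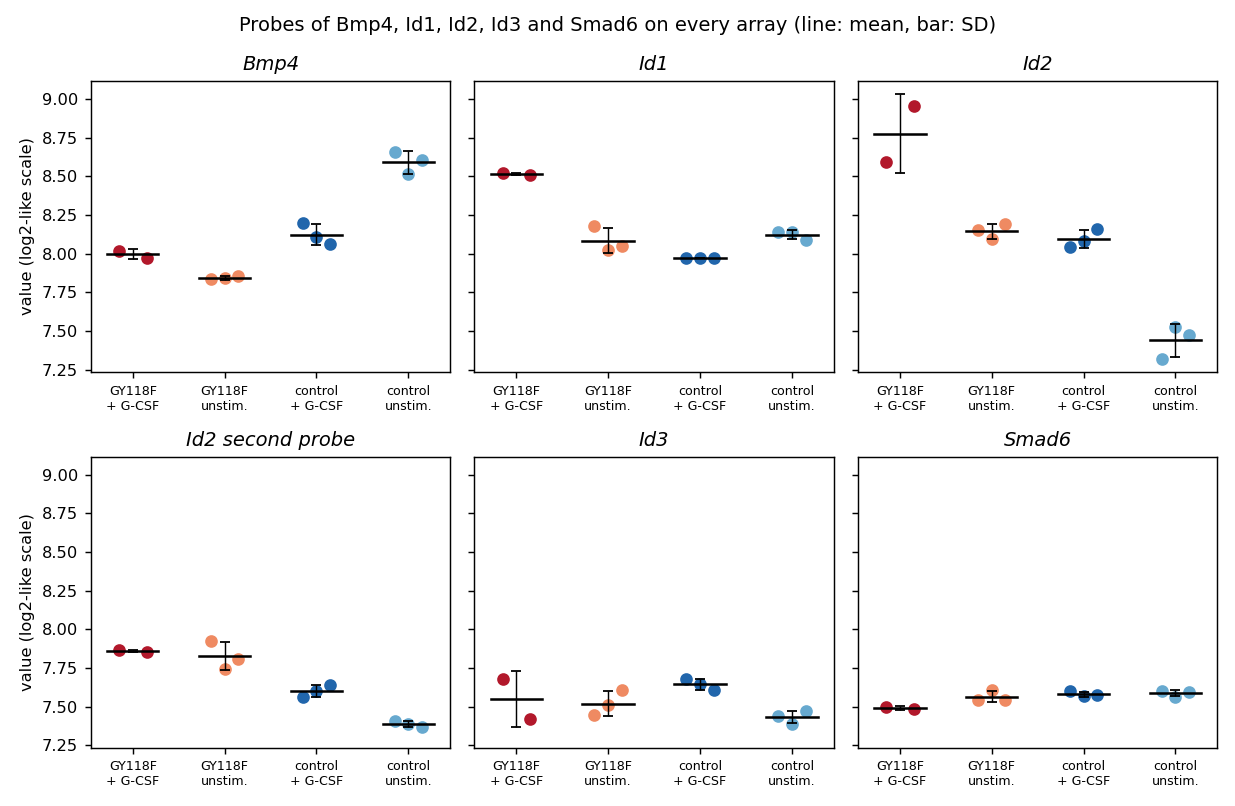
Value of each of the 6 probes on every array (y axis, log2-like scale) in the 4 groups (x axis), with the group mean as a line and the SD as a bar. Bmp4 spans 7.83 to 7.85 in unstimulated GY118F and 8.51 to 8.66 in unstimulated control EpiSCs, and Id1 is highest on the stimulated GY118F arrays, at 8.52 and 8.51; levels of different probes cannot be compared.

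Counted over probes, 3 of 6 were called higher after G-CSF in GY118F EpiSCs and 0 lower, where 17.6% of all probes were called higher and 19.5% lower (limma, Benjamini-Hochberg adjusted p under 0.05). At an unadjusted p under 0.05, 0 were lower as well. In control EpiSCs 3 of 6 were called higher and 2 lower, where 19.8% of all probes were higher and 20.5% lower. The groups did not overlap for 4 of 6 probes in GY118F and 5 of 6 in control EpiSCs, where this held for 56% and 52% of all probes. The median log2 change of the 6 probes was 0.09 in GY118F and 0.10 in control EpiSCs, beside 0.00 and 0.01 over all probes. A log2 change at least as large as that of Bmp4, in either direction, was found in 43.1% of all probes in GY118F and 7.20% in control EpiSCs. For Id1 these shares were 9.61% and 42.0%, and for the brighter Id2 probe 3.76% and 2.72%.

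The difference between the G-CSF effects of the 2 lines was tested next, since many genes also differed between stimulated and unstimulated arrays in the line without the receptor. The change in Bmp4 was more upward in GY118F than in control EpiSCs by 0.62 ± 0.08 (SE; limma adjusted p = 0.000376), a rise of 0.15 set against a fall of 0.47. The change in Id1 was more upward by 0.58 ± 0.07 (SE; limma adjusted p = 0.000371), a rise of 0.43 set against a fall of 0.15. Both calls held under each of the 18 alternatives that could be run for this test, leaving out any single array included. Over these, the difference was 0.59 to 0.66 for Bmp4 and 0.55 to 0.63 for Id1. Without either stimulated GY118F array, a single array stood for that group and the spread came from the other groups. A difference at least as large was found in 1.27% of all probes for Bmp4 and 1.46% for Id1. The other 4 probes were not called. The brighter Id2 probe had a difference of -0.03 (95% interval -0.29 to 0.24) and the second Id2 probe of -0.18 (-0.35 to -0.02; limma adjusted p = 0.234). Id3 stood at -0.18 (-0.39 to 0.03) and Smad6 at -0.07 (-0.20 to 0.06). Called more upward were 2 of 6 probes, beside 3.18% of all probes, and called more downward were 0, beside 1.71%, or 1 (the second Id2 probe) at an unadjusted p under 0.05. The members were chosen with the difference between the lines for Bmp4 already known. This count and the Bmp4 result are therefore descriptions.

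**Figure D2:**
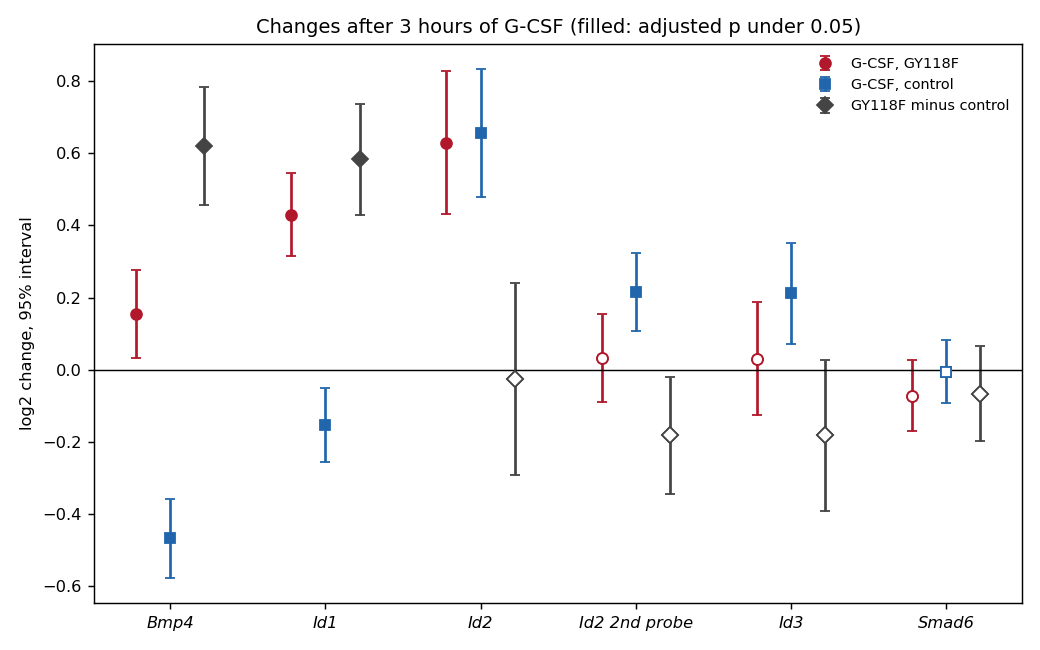
Log2 change after 3 hours of G-CSF (y axis, with 95% interval) for each probe (x axis) in GY118F EpiSCs, in control EpiSCs and as GY118F minus control, with filled symbols for limma adjusted p under 0.05. The GY118F minus control values of Bmp4 (0.62) and Id1 (0.58) stand above 0, and the brighter Id2 probe rose both in GY118F (0.63) and in control EpiSCs (0.66).

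The lines also differed before G-CSF, and those differences use the same unstimulated arrays as the tests above. Without G-CSF, Bmp4 was lower in GY118F than in control EpiSCs by 0.75 on the log2 scale (-0.75 ± 0.05, SE; limma adjusted p = 1.98e-07), with means of 7.84 ± 0.01 and 8.59 ± 0.07 (SD, n = 3 each). Both Id2 probes were higher in GY118F EpiSCs, the brighter by 0.71 ± 0.08 (SE; limma adjusted p = 2.60e-05) and the second by 0.44 ± 0.05 (SE; limma adjusted p = 2.24e-05). Id1 (-0.04, 95% interval -0.14 to 0.06), Id3 (0.09, -0.05 to 0.23) and Smad6 (-0.02, -0.11 to 0.06) were not called. Thus 2 of 6 probes were called higher and 1 lower, where 15.2% of all probes were higher and 15.2% lower, and these 3 were the probes whose groups did not overlap, which held for 43.5% of all probes.

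With G-CSF, Id1 was higher in GY118F than in control EpiSCs by 0.55 ± 0.05 (SE; limma adjusted p = 7.18e-06), with means of 8.52 ± 0.01 (SD, n = 2) and 7.97 ± 0.0008 (SD, n = 3). The brighter Id2 probe was higher by 0.68 ± 0.09 (SE; limma adjusted p = 0.000113) and the second by 0.26 ± 0.06 (SE; limma adjusted p = 0.00399). Bmp4 stood at -0.13 (95% interval -0.25 to -0.00; limma adjusted p = 0.121) without a call, although its arrays did not overlap, 8.02 and 7.97 in GY118F against 8.06 to 8.20 in control EpiSCs. Smad6 stood at -0.09 (limma adjusted p = 0.173) and Id3 at -0.10 (limma adjusted p = 0.384), and without stimulated GY118F replicate 2 Id3 was called lower at -0.22 (limma adjusted p = 0.0482). In all, 3 of 6 probes were called higher and 0 lower, where 13.9% of all probes were higher and 13.4% lower; at an unadjusted p under 0.05, 1 was lower (Bmp4). The groups did not overlap for 5 of 6 probes, beside 48.9% of all probes.

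The order of levels therefore differed from gene to gene. For Bmp4 it ran, from the highest, unstimulated control, stimulated control, stimulated GY118F and unstimulated GY118F EpiSCs, and stimulated control and stimulated GY118F EpiSCs were the neighbours without a called difference. For Id1 it ran stimulated GY118F, unstimulated control, unstimulated GY118F and stimulated control EpiSCs, with the unstimulated groups not told apart. For the brighter Id2 probe it ran stimulated GY118F, unstimulated GY118F, stimulated control and unstimulated control EpiSCs, and the arrays of the 2 groups in the middle overlapped.

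In the study's own criterion a gene of interest had to rise in stimulated GY118F EpiSCs by over 1.4-fold, with a p threshold of 0.01, while showing no significant change in control EpiSCs. Of the 6 probes 0 met this rule, which 151 of all probes (0.961%) met with limma adjusted p and 133 (0.846%) with unadjusted p. Only the brighter Id2 probe exceeded 1.4-fold among the 6, at 1.55-fold, and it also rose in control EpiSCs. Id1 stood at 1.35-fold and Bmp4 at 1.11-fold.

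Other genes of the pathway were counted by role, each by its brightest probe. The counts after G-CSF stand beside the shares over all probes. These were 17.6% higher and 19.5% lower in GY118F EpiSCs, and 19.8% higher and 20.5% lower in control EpiSCs. Of the 19 genes listed as other BMP and GDF ligands, 3 were measured: Bmp1, Bmp7 and Gdf3. Bmp1 is not a ligand but a metalloprotease that cleaves the BMP antagonist chordin. The ligands Bmp7 and Gdf3 were not called after G-CSF in either line. Bmp7 had group means of 7.45 to 7.63, near the 25th percentile of 7.62, which limits what its probe can show. Bmp1 rose after G-CSF by 0.28 in GY118F and 0.37 in control EpiSCs, and was higher in GY118F than in control EpiSCs by 0.90 without and 0.81 with G-CSF. Without stimulated GY118F replicate 2, the Bmp1 change in GY118F EpiSCs was 0.18 and not called (limma adjusted p = 0.0779). Of the 4 probes of Bmp1, 3 were called higher with G-CSF in GY118F and 2 in control EpiSCs. Gdf3 was lower in GY118F EpiSCs by 0.46 without and 0.39 with G-CSF. The 3 had a median log2 change of -0.02 in GY118F and -0.09 in control EpiSCs.

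Among 8 measured receptors and coreceptors of 13 listed, 3 rose and 3 fell in GY118F EpiSCs, and 3 rose and 1 fell in control EpiSCs. The type II receptor Bmpr2 rose by 0.84 ± 0.16 (SE) in GY118F and 0.67 ± 0.14 (SE) in control EpiSCs, and the type I receptor Acvr1 by 0.45 and 0.53. Acvr1b, a type I receptor of the Activin branch, fell by 0.42 in GY118F and by 0.41 in control EpiSCs. Rgma, a BMP coreceptor, fell by 0.45 in GY118F EpiSCs and rose by 0.21 in control EpiSCs, a difference of -0.66 ± 0.08 (SE; limma adjusted p = 0.000420). Its mean was 7.73 in stimulated and 8.19 in unstimulated GY118F EpiSCs, against 7.51 in stimulated and 7.30 in unstimulated control EpiSCs. With values below the 25th percentile set to it, the Rgma change in control EpiSCs was not called, while the difference between the lines was. The median log2 change of the 8 was 0.08 in GY118F and 0.17 in control EpiSCs.

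Of 10 measured SMADs and SMAD regulators of 15 listed, 3 rose and 2 fell in GY118F EpiSCs, and 2 rose and 2 fell in control EpiSCs. Smad3, which serves Activin and Nodal, fell by 0.60 in GY118F and by 0.40 in control EpiSCs on its brightest probe, while its other probe stood at -0.18 in GY118F and -0.14 in control EpiSCs, neither called. Ski, a corepressor of SMADs, rose by 0.34 and 0.29, and Tob1, an antiproliferative protein that binds BMP SMADs, fell by 0.27 in GY118F and by 0.18 in control EpiSCs. Smad2 rose by 0.32 in GY118F EpiSCs, and Zeb2, a SMAD-binding repressor, rose by 0.15 in control EpiSCs. The Smad2 change was 0.19 and not called without stimulated GY118F replicate 2 (limma adjusted p = 0.0700). The Tob1 fall in GY118F EpiSCs was no longer called when stimulated GY118F replicate 2 or 3 was left out (limma adjusted p up to 0.0617) or with only the groups compared (0.0523), and that in control EpiSCs without any array but unstimulated GY118F replicates 1 and 3 (up to 0.129). The Zeb2 rise lost its call without stimulated control replicate 2 or 3 or any unstimulated control array (limma adjusted p up to 0.151), and with values below the 25th percentile set to it both the Tob1 fall (0.0975) and the Zeb2 rise (0.0598) in control EpiSCs lost theirs. Of the SMADs that carry BMP signals, Smad1 was not called in either line on its brightest probe (log2 change 0.15 in GY118F and 0.12 in control EpiSCs), while its other probe stood at 0.23 without a call in GY118F EpiSCs and rose by 0.27 in control EpiSCs (limma adjusted p = 0.0394). The brightest Smad5 probe rose by 0.24 in GY118F EpiSCs and stood at -0.04 in control EpiSCs, while a second Smad5 probe rose by 0.33 in GY118F and 0.24 in control EpiSCs; Smad1 and Smad5 were chosen after their values were seen. Of the 10, 0 had a called difference between the G-CSF effects of the lines by limma adjusted p, and at an unadjusted p under 0.05 the count was 2 more upward and 1 more downward. The median log2 change was 0.14 in GY118F and 0.08 in control EpiSCs.

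Among 7 measured antagonists and extracellular modulators of 21 listed, 2 rose and 2 fell in GY118F EpiSCs, and 2 rose and 0 fell in control EpiSCs, where 2 were lower at an unadjusted p under 0.05. Follistatin (Fst), which binds Activin and also BMPs, had a mean of 10.76 in stimulated and 9.94 in unstimulated GY118F EpiSCs, against 11.13 in stimulated and 8.73 in unstimulated control EpiSCs. It rose by 0.82 in GY118F and 2.40 in control EpiSCs, a difference of -1.58 ± 0.14 (SE; limma adjusted p = 2.26e-05). Twsg1, a BMP-binding modulator, rose by 0.39 in GY118F and 0.21 in control EpiSCs. Chordin (Chrd) fell by 0.38 and Fstl1 by 0.27 in GY118F EpiSCs. The Chrd change was -0.17 and not called without stimulated GY118F replicate 3 (limma adjusted p = 0.229) and -0.59 without replicate 2, and with values below the 25th percentile set to it the call was lost (0.0594). The median log2 change of the 7 was -0.05 in GY118F and -0.05 in control EpiSCs.

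Other reported BMP targets were measured in 5 of 19 cases. In GY118F EpiSCs 4 rose and 1 fell, where 17.6% of all probes were higher and 19.5% lower. In control EpiSCs 3 rose and 1 fell, where 19.8% of all probes were higher and 20.5% lower. Their median log2 change was 0.46 in GY118F and 0.15 in control EpiSCs, beside 0.00 and 0.01 over all probes. In their mean over all arrays, Gata2 lay above only 0.87% of all probes and Msx1 above 10.3%. The homeobox gene Msx1 had a mean of 7.85 in stimulated and 7.34 in unstimulated GY118F EpiSCs, against 7.53 in stimulated and 7.30 in unstimulated control EpiSCs. Its rise was 0.51 in GY118F and 0.23 in control EpiSCs, a difference of 0.29 ± 0.07 (SE; limma adjusted p = 0.0409), and that call was lost when any single array but unstimulated GY118F replicate 2 was left out (limma adjusted p up to 0.150). Gata2, a zinc finger factor of trophoblast and blood, read 7.77 and 7.78 in stimulated GY118F EpiSCs and lay between 7.23 and 7.31 on the other 9 arrays, below the 25th percentile of 7.62. It rose by 0.51 ± 0.05 (SE; limma adjusted p = 4.09e-06) in GY118F EpiSCs and had a log2 change of 0.01 in control EpiSCs, a difference of 0.49 ± 0.06 (SE; limma adjusted p = 0.000484), and of 0.15, still called, with values below that percentile set to it. Cdx2, a caudal homeobox factor, rose in both lines, by 0.46 in GY118F and 1.23 in control EpiSCs, a difference of -0.77 ± 0.10 (SE; limma adjusted p = 0.000550) that was not called with values below the 25th percentile set to it (-0.47; limma adjusted p = 0.0516). The zinc finger factor Zfp423 rose by 0.28 in GY118F and 0.15 in control EpiSCs on its brightest probe, and its other probe stood at 0.13 without a call in GY118F and rose by 0.15 in control EpiSCs. The rise in control EpiSCs on the brightest probe lost its call without stimulated control replicate 2 or unstimulated control replicate 1 or 2 (limma adjusted p up to 0.111). With values below the 25th percentile set to it, the Msx1 rise in control EpiSCs was not called. Hey1, a bHLH repressor, fell by 0.32 in GY118F and by 0.24 in control EpiSCs.

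Markers of trophoblast, a source of Bmp4 in the embryo, were measured in 7 of 13 cases and include Gata2 and Cdx2. With G-CSF, 4 of these were called higher and 1 lower in GY118F EpiSCs, beside 17.6% and 19.5% of all probes. In control EpiSCs 3 were higher and 2 lower, beside 19.8% and 20.5%. Their mean level was 8.42 to 8.51 in stimulated and 7.94 to 7.99 in unstimulated GY118F EpiSCs, against 8.24 to 8.33 in stimulated and 7.89 to 7.93 in unstimulated control EpiSCs. This mean level was higher with G-CSF in both lines, but the median log2 change of the 7 was 0.46 in GY118F and 0.01 in control EpiSCs. Tfap2c had a log2 change of 1.99 in GY118F and 0.95 in control EpiSCs. In control EpiSCs Eomes (1.39) and Cdx2 (1.23) went up, and Krt8 (-0.43) and Krt18 (-0.52) went down. The part of trophoblast-like cells, or of the mean EpiSC marker level that was lower in GY118F EpiSCs, in the Bmp4 and Id values was not tested.

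Among bHLH partners and relatives of the ID proteins, 6 of 12 were measured, and 2 rose and 1 fell in each line after G-CSF. Tcf12, an E protein that ID proteins bind, rose by 0.31 in GY118F and 0.16 in control EpiSCs on its brightest probe, while a second probe stood at -0.13 without a call in GY118F and fell by 0.25 in control EpiSCs. The Tcf12 rise in control EpiSCs lost its call without stimulated control replicate 2 or 3 or unstimulated control replicate 1 or 2 (limma adjusted p up to 0.0860). The mesodermal factor Twist1 rose by 0.30 in GY118F and 0.44 in control EpiSCs, and the rise in GY118F EpiSCs lost its call without stimulated GY118F replicate 3 (limma adjusted p = 0.0649) and with values below the 25th percentile set to it (0.0522). Hes1, a bHLH repressor, had a mean of 8.84 in stimulated and 8.73 in unstimulated GY118F EpiSCs, against 8.62 in stimulated and 9.28 in unstimulated control EpiSCs. It fell by 0.66 in control EpiSCs, with a log2 change of 0.12 without a call in GY118F EpiSCs, a difference of 0.78 ± 0.09 (SE; limma adjusted p = 0.000143). Hes5 fell by 0.26 in GY118F EpiSCs, with a difference of -0.30 ± 0.07 (SE; limma adjusted p = 0.0248) whose call was lost without either stimulated GY118F array, unstimulated GY118F replicate 1 or 2, stimulated control replicate 2 or 3 or unstimulated control replicate 2 or 3 (limma adjusted p up to 0.0814). With values below the 25th percentile set to it, the Hes5 difference was -0.01 (limma adjusted p = 0.804) and its fall in GY118F EpiSCs was not called. On the other Hes5 probe the difference was -0.34 without a call (limma adjusted p = 0.0656). The E protein genes Tcf3 and Tcf4 were not called in any of the 5 comparisons. Tcf3 had group means of 7.39 to 7.46, below the 25th percentile of 7.62, which limits what its probe can show. The median log2 change of the 6 was 0.08 in GY118F and 0.03 in control EpiSCs.

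Between the lines, the same lists were counted before and after G-CSF. Over all probes, 15.2% were called higher and 15.2% lower in GY118F than in control EpiSCs without G-CSF, and 13.9% and 13.4% with it. Among receptors, 3 of 8 were higher and 0 lower in GY118F EpiSCs both without and with G-CSF, and they were Rgma (0.88 without and 0.22 with G-CSF), Neo1 (0.25 and 0.43) and the type I receptor Bmpr1b (0.17 and 0.21). Among SMADs and regulators, 4 of 10 were higher and 2 lower without G-CSF, including Smad3 (0.53), Zeb2 (0.35), Ski (-0.41) and the corepressor Skil (-0.67). With G-CSF, 3 were higher and 1 lower, namely Smad3 (0.33), Zeb2 (0.32), Smad5 (0.28) and Ski (-0.36). Among antagonists, 4 of 7 were higher and 1 lower without G-CSF, and 1 higher and 2 lower with it. Fst was 1.21 higher in GY118F than in control EpiSCs without G-CSF and stood at -0.37 with it, which was a call in each case. Chrd was higher by 0.45 without G-CSF, Twsg1 by 0.27 without and 0.46 with G-CSF, and Cer1, a secreted antagonist of Nodal and BMPs, stood at -0.36 and -0.26, both called. Among other BMP targets, Cdx2 was higher (0.63) and Hey1 lower (-0.35) of 5 without G-CSF, whereas with G-CSF Msx1 (0.32), Gata2 (0.49) and Zfp423 (0.23) were higher and Hey1 lower (-0.43). Of the 6 bHLH genes, Hes5 was higher (0.29) and Hes1 lower (-0.55) without G-CSF, and Tcf12 (0.28) and Hes1 (0.23) were higher with it.

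Several of these calls between the lines rested on single arrays. With G-CSF, Rgma stood at 0.13 without stimulated GY118F replicate 3 (limma adjusted p = 0.186) and at 0.19 without stimulated control replicate 1 (0.0502), neither called. It also lost its call with only the groups compared (0.0623). Bmpr1b lost its call without G-CSF when unstimulated GY118F replicate 2 or unstimulated control replicate 1 or 2 was left out (limma adjusted p up to 0.101), and with G-CSF when stimulated GY118F replicate 3 was (0.109). Cer1 with G-CSF was not called when stimulated GY118F replicate 2 or 3 or stimulated control replicate 2 or 3 was left out (limma adjusted p up to 0.0917), and Fst without stimulated GY118F replicate 2 (0.120) or stimulated control replicate 3 (0.0513). Zfp423 with G-CSF lost its call without stimulated GY118F replicate 3 (limma adjusted p = 0.0773), and Hes1 without stimulated GY118F replicate 2 (0.125) or stimulated control replicate 2 (0.0574). With values below the 25th percentile set to it, Bmpr1b and Cer1 were called neither without nor with G-CSF, Hes5 was not called without it, and Rgma and Fst were not called with it. The other probes of Smad3 (0.16 without and 0.12 with G-CSF), Skil (-0.24 without), Smad5 (0.09 with), Tcf12 (0.09 with), Zfp423 (0.11 with) and Bmpr1b (0.08 with) were not called, while those of Bmpr1b (0.22) and Hes5 (0.23) without G-CSF and of Cer1 (-0.26 without and -0.19 with) were.

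**Figure D3:**
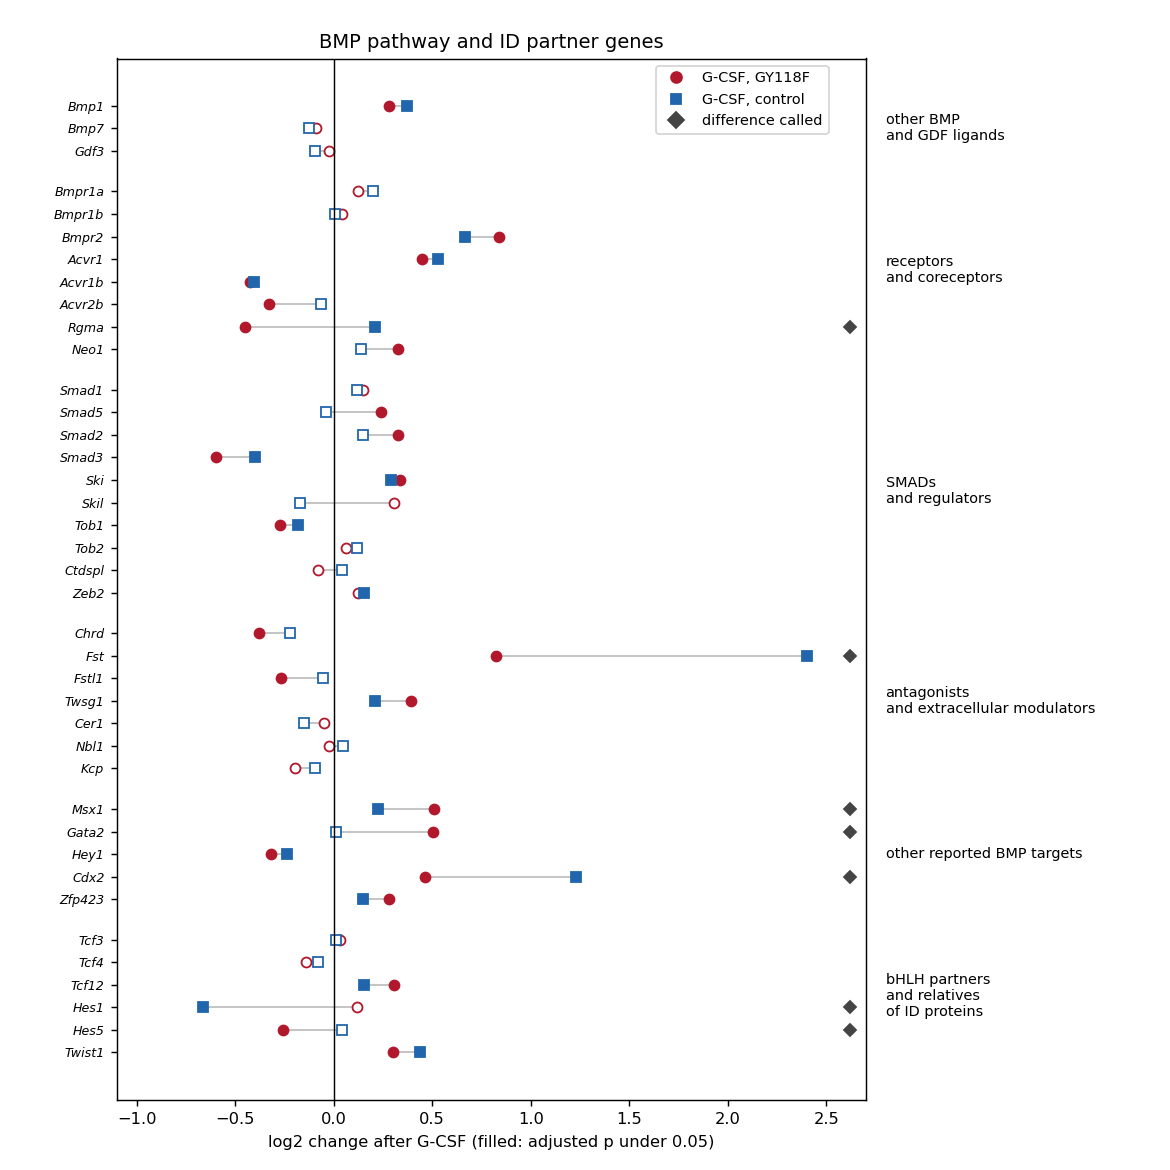
Log2 change after G-CSF (x axis) of each measured gene of 6 lists (y axis) in GY118F EpiSCs (circles) and control EpiSCs (squares), filled where limma adjusted p was under 0.05, with a diamond at the right where the difference between the lines was called. Fst, at 0.82 in GY118F and 2.40 in control EpiSCs, reaches farthest to the right, and diamonds mark Rgma, Fst, Msx1, Gata2, Cdx2, Hes1 and Hes5.

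Probes most like Bmp4 and Id1 were found by Pearson's r over the 11 arrays among 4777 probes with 1 symbol and a range of at least 0.5. The arrays fall into 4 groups, so r mostly compares group means and is given as a description. Most like Bmp4 were Pdlim3 (r = 0.97), which encodes a PDZ and LIM domain protein, Tafa4 (0.97), Pxdc1 (0.96), Fzd10os (0.96) and Pla1a (0.96), a phospholipase. Pdlim3 had means of 7.55 in stimulated and 7.55 in unstimulated GY118F EpiSCs, against 8.22 in stimulated and 9.14 in unstimulated control EpiSCs. Tafa4 had means of 7.93 and 7.66 in stimulated and unstimulated GY118F EpiSCs, against 8.08 and 8.40 in stimulated and unstimulated control EpiSCs, so its mean was higher with G-CSF in GY118F EpiSCs, as that of Bmp4 was. The means of Pdlim3, Pxdc1, Fzd10os and Pla1a were not higher in stimulated than in unstimulated GY118F EpiSCs. Most like Id1 were 2 probes of Lmna (r = 0.97 and 0.955), which encodes the nuclear lamins A and C, and probes of Zfp36 (0.95), whose product destabilises mRNAs, Xbp1 (0.95), a transcription factor of the unfolded protein response, and Jun (0.95), an AP-1 subunit. The brighter Lmna probe had a mean of 9.41 in stimulated and 8.40 in unstimulated GY118F EpiSCs, against 8.20 in stimulated and 8.38 in unstimulated control EpiSCs. All 5 probes were highest in stimulated GY118F and lowest in stimulated control EpiSCs, as Id1 was.

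**Figure D4:**
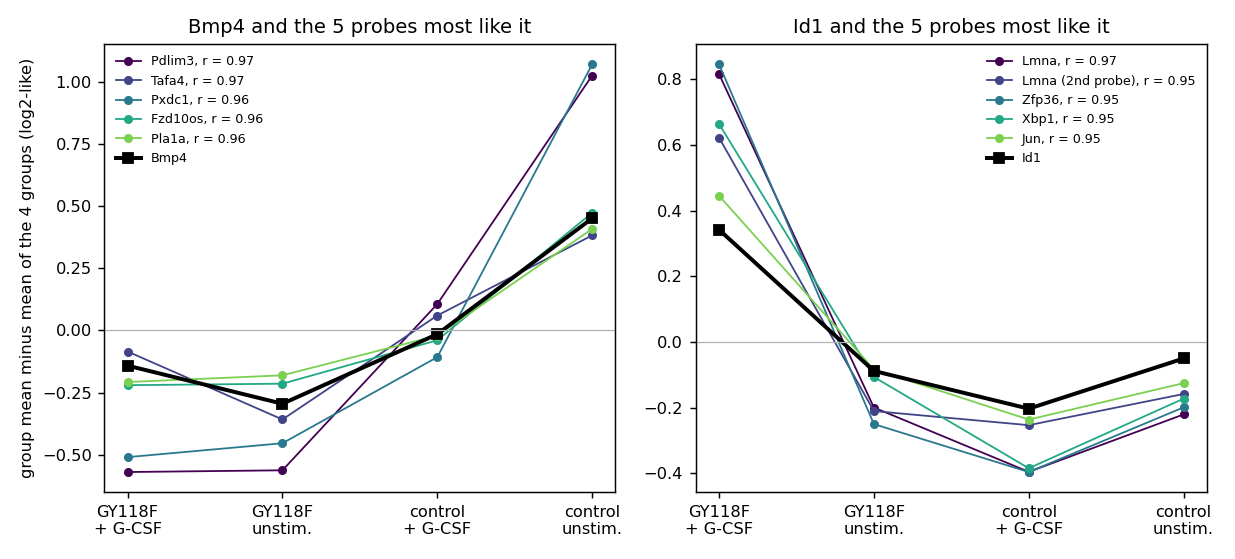
Group mean minus the mean of the 4 groups (y axis, log2-like scale) for Bmp4 (left) and Id1 (right) in black and for the 5 probes with the highest Pearson's r to each, across the 4 groups (x axis). The probes like Bmp4 are highest in unstimulated control EpiSCs, and those like Id1 are highest in stimulated GY118F EpiSCs.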

How the data were processed

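RNA of 11 samples was hybridised to Illumina mouse arrays, 1 sample to an array. The authors deposited 1 table of log2-like values for 15718 probes, and the submitters' processing notes name lumi as the tool; its version and settings, the choice between a plain log2 and a variance-stabilising transform, and detection p-values are not given in the sources used here. Sorted values differed between arrays by at most 0.00116, as after quantile normalization, so values were not normalized again. The platform annotation gave 1 symbol to 13711 probes, several to 5 and none to 2002. Where a gene had several probes, all were tested and the brightest stands for the gene.

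Group means were fitted for all probes and 4 groups together with limma 3.58.1 in R 4.3.3 (lmFit, eBayes), with 5 contrasts and Benjamini-Hochberg adjustment over all probes; adjusted p under 0.05 is a call. The fit was tested on simulated data. In each pathway list and comparison at most the 4 largest called changes are named. The members, gene lists and marker lists were chosen with earlier results of these data known, among them the difference between the lines for Bmp4. Alternatives were 1 probe per symbol, only the groups compared, 2 numberings of the replicate block, values below the 25th percentile set to it (the floor), quantile normalization run again, leaving out the dimmer 50% of probes, eBayes with trend and robust, array weights, unadjusted p and leaving out each array. The number of arrays limits the precision. Leaving out a stimulated GY118F array left a single array in that group, so the spread then came from the other groups. Promoters and gene starts are those of RefSeq for GRCm38.p6, in a table from which 5 of the 7 genes were used.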

Additional observations from a re-analysis of the deposited data

Results flagged for a closer look

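Differences between the G-CSF effects of GY118F and control EpiSCs, GY118F minus control on the log2 scale, were called by limma for 2 of 5 member genes. They were also called for 7 other genes of the pathway lists, which held 3, 8, 10, 7, 5 and 6 measured genes. Over all probes, 3.18% were called more upward and 1.71% more downward. The members and lists were chosen with earlier results of these data known, so these counts are descriptions. Bmp4 stood at 0.62, from a rise of 0.15 in GY118F and a fall of 0.47 in control EpiSCs. Id1 stood at 0.58, from a rise of 0.43 in GY118F and a fall of 0.15 in control EpiSCs. More upward in GY118F EpiSCs were also Hes1 (0.78), Gata2 (0.49) and Msx1 (0.29). More downward were Fst (-1.58), Cdx2 (-0.77), Rgma (-0.66) and Hes5 (-0.30). The Msx1 call was lost with a replicate block (limma adjusted p = 0.0766), and the Cdx2 and Hes5 calls with values below the 25th percentile set to it (limma adjusted p = 0.0516 and 0.804). Groups of 2 or 3 arrays are too small for a search for single outlying arrays.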

How the results depend on the processing

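Outside the settings that leave out an array, 219 of 229 values of the 6 probes kept their direction and their side of the threshold, 6 lost a call and 4 turned sign without ever being called. The rise of Bmp4 in GY118F EpiSCs lost its call, at 0.15 each time, with only the groups compared (limma adjusted p = 0.0702), with the title numbers as block (0.0547), with trend and robust (0.0589) and with array weights (0.0649); leaving out 1 array it ranged over 0.13 to 0.18. The fall of Id1 in control EpiSCs ranged over -0.17 to -0.14 without 1 array. With the floor, the difference between the lines turned to 0.15 for Id2, 0.025 for its second probe and 0.0001 for Id3, and Id3 in stimulated GY118F against stimulated control EpiSCs turned to 0.0001. Leaving out 1 array turned the sign of these values, with ranges of -0.10 to 0.16 (Id3) and -0.0084 to 0.083 (second Id2 probe) for G-CSF in GY118F EpiSCs, -0.017 to 0.0019 for Smad6 in control EpiSCs, -0.21 to 0.15 for the Id2 difference between the lines, and -0.22 to 0.034 for Id3 between the stimulated lines; of these only the -0.22 was a call (limma adjusted p = 0.0482). The cause was not tested.

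Without the dimmer 50% of probes, none of the 6 probes remained and fewer probes were tested. Of these, 1783 were called higher and 1977 lower with G-CSF in GY118F EpiSCs, 2022 lower in control EpiSCs, 288 more upward and 149 more downward in the difference, 1484 higher and 1522 lower between the unstimulated lines, and 1384 higher and 1402 lower between the stimulated lines. Leaving out 1 array gave 310 to 577 probes more upward (310 without stimulated GY118F replicate 2) and 174 to 397 more downward (174 without unstimulated GY118F replicate 2, and 177 when unstimulated control replicate 2 was left out), beside 500 and 268 with all arrays. The fit on only the groups compared has no counterpart for the difference, which needs all 4 groups.

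Same-numbered arrays of different groups deviated together at r over 0.1 in 7 of 15 pairs with source-name numbers for the stimulated GY118F arrays and title numbers for the others. With title numbers throughout, 9 of 15 pairs did. Not every pair did, so the numbers were not taken to pair the arrays, although all 6 pairs of title number 1 did (r = 0.14 to 0.45). The replicate block with source-name numbers for the stimulated GY118F arrays gave 0.18 for Bmp4 in GY118F EpiSCs (limma adjusted p = 0.0333). In the difference between the lines it gave 0.64 for Bmp4 and 0.60 for Id1. This block ended no call of Bmp4 or Id1. The block with title numbers ended the call of the Bmp4 rise in GY118F EpiSCs (limma adjusted p = 0.0547). Values near the floor of the table limit what Id3, Smad6 and the second Id2 probe can show.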
